A study of Homo sapiens with 34 samples.

Results

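Axons find their targets by reading secreted and membrane-bound cues, and this account follows the histone marks at the genes for 4 such ligand and receptor systems. The set was chosen by name from the GENCODE annotation of the human genome (hg38). It holds the numbered semaphorins, the plexins, both neuropilins, the ephrins of the A and B classes with their EPHA and EPHB receptors, the Slit ligands with ROBO1 to ROBO4, and the netrins NTN1, NTN3, NTN4 and NTN5 with DCC and UNC5A to UNC5D. This gave 69 of 19970 protein-coding genes on chromosomes 1 to 22 and X. They comprised 35 ligand genes (20 semaphorins, 8 ephrins, 3 Slit genes and 4 netrins) and 34 receptor genes (9 plexins, 2 neuropilins, 14 Eph receptors, 4 Robo receptors and 5 netrin receptors). The rule uses names only, although the set was chosen with earlier results of these data known.

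Semaphorins signal through plexins, and secreted class 3 members usually need a neuropilin as a co-receptor. Ephrins are anchored to the cell surface, so that Eph receptors, a family of receptor tyrosine kinases, read them at cell contacts. Slit proteins repel axons through Robo receptors, and netrins attract through DCC or repel through UNC5 receptors. These systems also steer the migration of neural crest cells, the lineage from which the sympathetic nervous system and neuroblastoma arise.

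Chromatin immunoprecipitation and sequencing (ChIP-seq) of histone marks had been done in KELLY, a MYCN-amplified cell line established from human neuroblastoma. Both groups were KELLY cells, treated with the solvent DMSO or with doxycycline. Per the methods of the study, the cells carried a doxycycline-inducible short hairpin RNA (shRNA) against the co-repressor RUNX1T1 from a lentiviral vector and were treated for 72 h, but the sources used here do not state which hairpin these libraries used. Each of 5 marks had 3 libraries per treatment, which gave 30 peak lists, and 4 further samples were inputs. All values therefore come from 1 cell line, and doxycycline was not given to cells without the hairpin among these samples. Nothing in the labels says that the replicates were separate cultures, so p-values measure the spread between libraries only, which may be technical.

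Of the marks, H3K4me3 is found at active or poised promoters, H3K27ac at active promoters and enhancers, H3K4me1 at enhancers and around promoters, H3K4me2 at both, and H3K27me3 at genes silenced by Polycomb. The depth at which peaks were called ranged from 71.9 to 81.1 M reads in DMSO and from 57.0 to 63.4 M reads in doxycycline. As no doxycycline list reached the depth of a DMSO list, an effect of treatment and one of depth cannot be told apart for any gene. The caller's fragment length estimate for H3K27me3 was 105 to 256 bp in DMSO and 108 to 280 bp in doxycycline, against 205 to 278 bp over the lists of the other marks. As a check of the label, all 9 adrenergic neuroblastoma markers (HAND2 among them) had H3K4me3 and H3K27ac at a start site in all 6 libraries, as had 2 of 8 mesenchymal markers (TWIST1 and FN1) and 1 of 9 markers of other tissues (GFAP). RUNX1T1 itself had both marks in all 6 libraries, which says nothing of the knockdown because a hairpin acts on RNA.

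Before the calls are described, the promoters of the 3 genes on which the comparison of treatments turned are shown, namely those of the receptors EPHA4 and EPHB4 and of the transmembrane semaphorin SEMA6C. Each sequence is the 300 bases around a start site in RefSeq (build GRCh38.p14), given 5′ to 3′ on the minus strand, on which all 3 genes lie, with the last 50 bases downstream of the start. Capitals mark CpG dinucleotides, the sites of DNA methylation that are dense in promoters able to carry H3K4me3 and H3K27me3. The windows lie at chr2:221572255-221572554 (EPHA4), chr7:100827474-100827773 (EPHB4) and chr1:151146582-151146881 (SEMA6C).
EPHA4: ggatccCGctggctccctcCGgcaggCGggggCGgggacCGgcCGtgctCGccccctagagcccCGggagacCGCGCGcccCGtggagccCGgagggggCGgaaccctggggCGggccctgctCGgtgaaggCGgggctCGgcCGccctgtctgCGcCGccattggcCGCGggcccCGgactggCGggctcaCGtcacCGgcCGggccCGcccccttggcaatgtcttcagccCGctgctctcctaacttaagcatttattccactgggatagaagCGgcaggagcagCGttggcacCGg
EPHB4: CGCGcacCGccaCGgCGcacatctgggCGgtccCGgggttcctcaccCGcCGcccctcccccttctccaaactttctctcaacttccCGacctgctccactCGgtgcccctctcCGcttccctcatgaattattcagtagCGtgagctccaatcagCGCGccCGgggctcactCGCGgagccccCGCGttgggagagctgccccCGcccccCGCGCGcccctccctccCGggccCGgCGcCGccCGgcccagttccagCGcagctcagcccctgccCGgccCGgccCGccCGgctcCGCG
SEMA6C: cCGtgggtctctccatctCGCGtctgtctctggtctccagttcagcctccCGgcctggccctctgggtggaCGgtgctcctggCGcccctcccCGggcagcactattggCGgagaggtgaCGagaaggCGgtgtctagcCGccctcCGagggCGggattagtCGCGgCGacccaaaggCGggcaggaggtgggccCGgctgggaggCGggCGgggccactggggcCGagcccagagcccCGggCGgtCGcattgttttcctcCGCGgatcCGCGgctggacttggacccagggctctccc

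These windows held 33 (EPHA4), 36 (EPHB4) and 28 (SEMA6C) CpG dinucleotides, with a GC content of 74.3%, 74.3% and 71.7%. A RefSeq window was matched for 59 of the 69 guidance genes, whose median was 27 CpG, against 23 over 15315 protein-coding genes. All 3 thus lay above the median of either set.

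A larger share of guidance genes than of all protein-coding genes was marked at start sites. A promoter was counted as marked where a peak overlapped 1 kb either side of any annotated start site in 3 of 3 libraries. In DMSO, H3K4me3 marked 64 of the 69 genes (92.8%, against 72.6% of all protein-coding genes), H3K4me1 63 (91.3% against 66.3%), H3K4me2 61 (88.4% against 72.3%) and H3K27ac 54 (78.3% against 65.8%). H3K27me3 marked 18 (26.1% against 20.9%). The genes are also longer, with a median span of 69.1 kb against 27.5 kb, and have a median of 7 annotated start sites against 5, so that more positions could be counted for them.

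**Figure D1:**
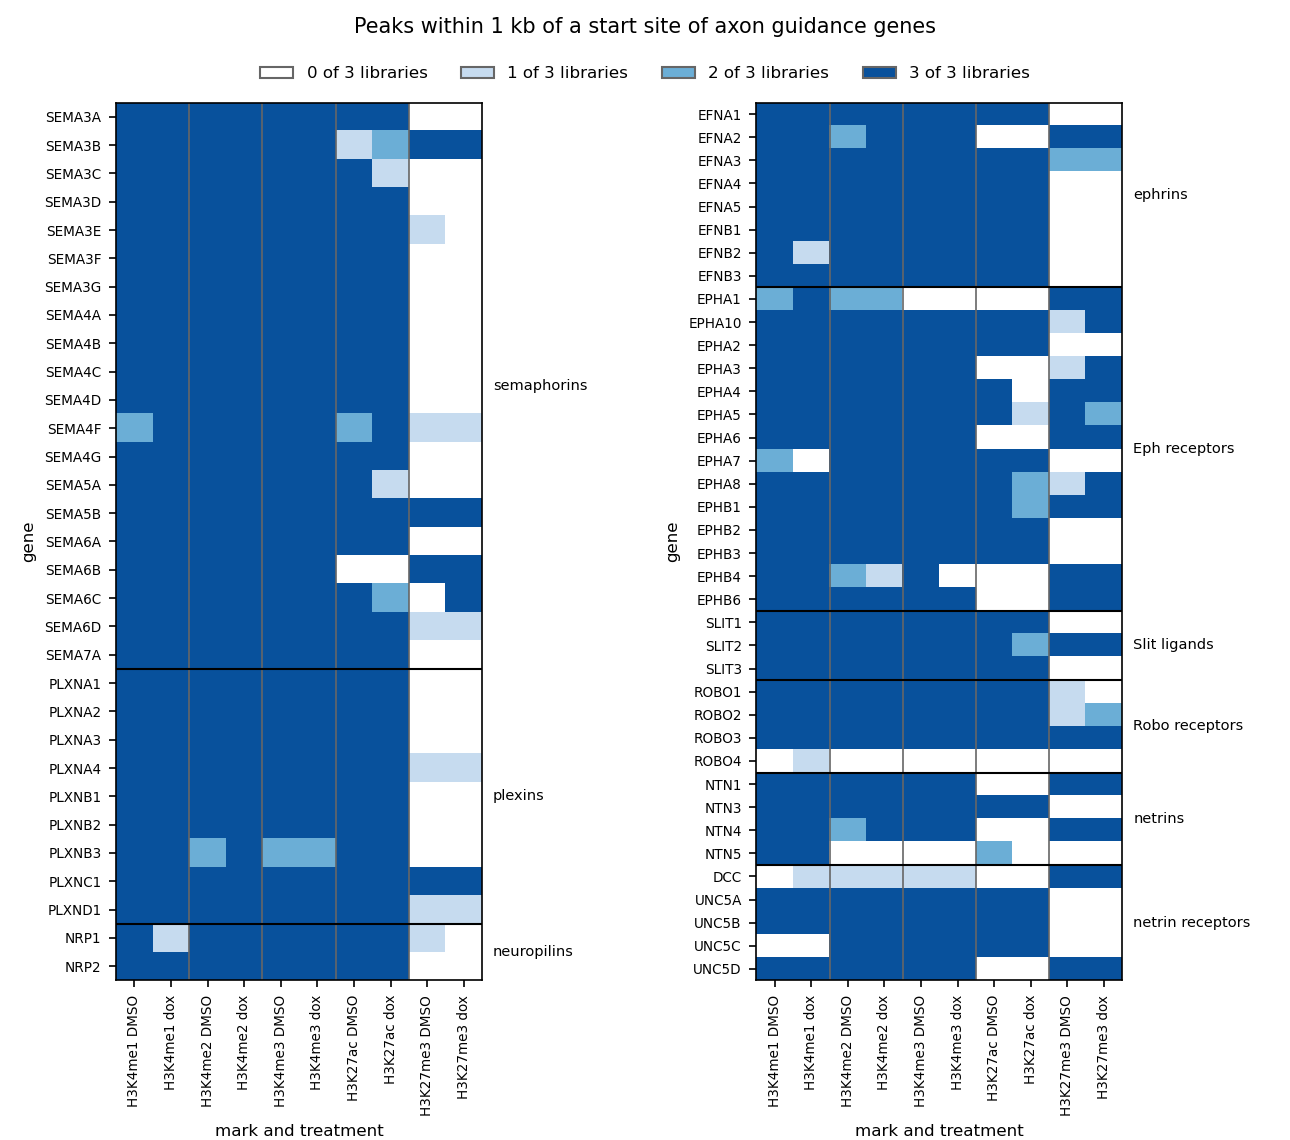
Number of libraries of 3 with a peak within 1 kb of a start site, for each of the 69 guidance genes (vertical axis, grouped by family) and each mark and treatment (horizontal axis; dox, doxycycline). White is 0 and the darkest colour is 3 libraries. H3K4me3 fills 64 genes in DMSO, H3K27me3 18 (7 of them Eph receptors), and H3K27ac 54 in DMSO and 47 in doxycycline.

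A common pattern covered 30 of the 69 genes, which carried H3K4me1, H3K4me2, H3K4me3 and H3K27ac in all 6 libraries of each mark and H3K27me3 in none. The share of all protein-coding genes with it is not given here, so the pattern cannot be called particular to guidance genes. The pattern was found in 11 of 20 semaphorins, 5 of 9 plexins, 5 of 8 ephrins, 2 of 3 Slit genes, 3 of 14 Eph receptors, 2 of 5 netrin receptors, 1 of 4 netrins, 1 of 2 neuropilins and 0 of 4 Robo receptors. SEMA3F, a secreted repellent that binds NRP2, had H3K4me3 fold enrichment over input of 18.1 to 46.1 in DMSO (mean 30.9, n = 3) and of 19.9 to 49.6 in doxycycline (mean 37.0). The netrin receptors UNC5A and UNC5B and the ephrins EFNA1, EFNA5 and EFNB1 belonged to the same group.

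At the other end stood genes with H3K27me3. EPHA1 was the only guidance gene with H3K27me3 in all 6 libraries and H3K4me3 in none, and no H3K27ac peak was called there either. Its H3K27me3 peaks had fold enrichments of 2.76 to 3.47 in DMSO and 3.35 to 3.64 in doxycycline. DCC, the receptor through which netrin attracts axons, had H3K27me3 in all 6 libraries, H3K4me3 in 1 of 3 libraries of each treatment and H3K27ac in none. ROBO4, the Robo receptor of endothelial cells, had 1 promoter peak in the 30 lists, of H3K4me1 in a doxycycline library.

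H3K4me3 and H3K27me3 were found together at more guidance promoters than at promoters in general. In DMSO, 16 of 69 genes (23.2%) had both marks in all libraries, against 2219 of 19970 (11.1%). They were SEMA3B, SEMA5B, SEMA6B, PLXNC1, EFNA2, EPHA4, EPHA5, EPHA6, EPHB1, EPHB4, EPHB6, SLIT2, ROBO3, NTN1, NTN4 and UNC5D. In doxycycline there were 18 (26.1%, against 12.1%). Because any start site counts, the marks may lie at different starts of a gene: with the canonical start alone, 10 genes in DMSO and 14 in doxycycline had both. The share of all protein-coding genes is not given here for that start, so whether the excess holds there was not tested. H3K4me3 without H3K27me3 marked 48 genes in DMSO (69.6% against 61.5%) and 45 in doxycycline (65.2% against 60.2%). H3K27me3 alone marked 2 (2.90% against 9.77%) and then 3 (4.35% against 11.1%), and neither mark was found at 3 in each treatment (PLXNB3, ROBO4 and NTN5).

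Membership of these classes differed between treatments for 6 of 69 guidance genes (8.70%) and for 999 of 19970 protein-coding genes (5.0025%). The Eph receptors EPHA3, EPHA8 and EPHA10 and the semaphorin SEMA6C had H3K4me3 alone in DMSO and both marks in doxycycline. EPHA5 had both in DMSO and H3K4me3 alone in doxycycline, and EPHB4 had both in DMSO and H3K27me3 alone in doxycycline. Only SEMA6C (H3K27me3) and EPHB4 (H3K4me3) differed by 3 libraries, the others by 1 or 2, and no test was made of the difference in classes.

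H3K27ac divided the promoters with both marks. Of the 16 such genes in DMSO, 7 had H3K27ac in 3 of 3 libraries and 8 in none, whereas 46 of the 48 with H3K4me3 alone had it in 3 of 3. Over all genes the shares with H3K27ac were 37.1% of promoters with both marks and 96.6% of promoters with H3K4me3 alone. SEMA5B, PLXNC1 and ROBO3 kept both marks and H3K27ac in all 6 libraries. UNC5D, NTN1, NTN4, EFNA2, SEMA6B, EPHA6, EPHB4 and EPHB6 were the 8 without H3K27ac.

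The height of the peaks ranged widely. Mean H3K4me3 fold enrichment in DMSO was highest at EPHB2 (44.2), UNC5B (42.7) and UNC5C (41.2) and lowest, among genes called in 3 of 3 libraries, at NTN4 (4.44) and EPHB4 (4.59). In DMSO, H3K27ac was highest at NRP1, the co-receptor of secreted semaphorins, with 8.44 to 15.1 (mean 12.4). SEMA4C (11.5), NTN3 (11.002) and EFNA5 (10.8) followed. In doxycycline, NRP1 had 7.56 to 15.8 (mean 12.7), below EFNA5 (mean 14.2) and SEMA4C (mean 13.9). Among genes called in 3 of 3 libraries, H3K27me3 was highest at SEMA3B (4.85), SEMA6B (4.27), EFNA2 (4.21) and NTN1 (4.07). Fold enrichment depends on the depth and input of a library, so these values describe peaks and were not compared between treatments.

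Among the other genes singled out as family prototypes, the secreted repellent SEMA3A had mean H3K4me3 fold enrichment of 24.1 in DMSO and 31.0 in doxycycline and H3K27ac of 4.39 and 4.79. EPHA2, an Eph receptor studied in many epithelial tumours, had H3K4me3 of 24.3 and 30.7 but H3K27ac of only 2.22 and 2.64. ROBO1 had H3K4me3 of 39.6 and 43.3 and H3K27ac of 6.75 and 8.63. NTN1 and UNC5D, with both H3K4me3 and H3K27me3, had H3K4me3 of 16.4 and 13.1 (NTN1) and of 17.8 and 22.5 (UNC5D). Their H3K27me3 values were 4.07 and 3.95 and, in UNC5D, 2.86 and 2.93.

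The numbers of marked promoters by treatment were then compared to ask whether RUNX1T1 knockdown went with other marks at these genes. The number of libraries with a call was the same in both treatments for all 5 marks in 43 of 69 genes, and the share of all protein-coding genes for which this held is not given here. The number of genes called in 3 of 3 libraries was 63 in both treatments for H3K4me1, 61 in DMSO and 64 in doxycycline for H3K4me2, 64 and 63 for H3K4me3, 54 and 47 for H3K27ac, and 18 and 21 for H3K27me3. Over all protein-coding genes the shares for H3K27ac were 65.8% and 65.2%, against 78.3% and 68.1% of guidance genes, and for H3K27me3 20.9% and 23.2%, against 26.1% and 30.4%. Per library, H3K27ac was called at 54 to 57 guidance genes in DMSO (mean 55.7, SD 1.53, n = 3) and at 50 to 54 in doxycycline (mean 51.3, SD 2.31, n = 3), so the groups met at 54. For H3K27me3 the numbers were 22.3 ± 2.89 and 24.3 ± 2.52, with overlapping ranges. With 3 libraries against 3, an exact permutation test cannot give a p under 0.1, so no single count or gene could pass 0.05 by it.

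**Figure D2:**
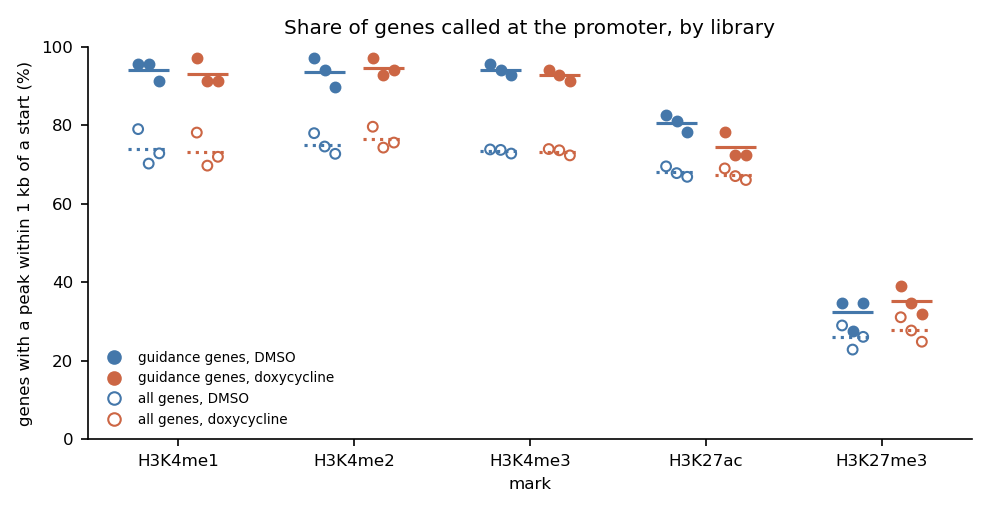
Share of genes (%, vertical axis) with a peak within 1 kb of a start site in each of the 30 libraries, for the 69 guidance genes and for all 19970 protein-coding genes, by mark and treatment. Each point is a library; guidance genes lie above all genes in H3K4me1, H3K4me2 and H3K4me3, and the DMSO and doxycycline points for H3K27ac in guidance genes span 78.3 to 82.6% and 72.5 to 78.3%.

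A gene was said to separate the treatments where a mark was called in 3 of 3 libraries of one and 0 of 3 of the other. For H3K4me1, 0 guidance genes were called in doxycycline only (0.125% of all genes were) and 0 in DMSO only (0.19%). For H3K4me2 the numbers were 0 in doxycycline only (0.03%) and 0 in DMSO only (0%). For H3K4me3 they were 0 in doxycycline only (0.0551%) and 1 in DMSO only (0.0751%). For H3K27ac they were 0 in doxycycline only (0.11%) and 1 in DMSO only (0.22%). For H3K27me3 they were 1 in doxycycline only (0.19%) and 0 in DMSO only (0%). Each of these counts is 1 gene or none in 69.

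The H3K4me3 gene was EPHB4, a receptor of ephrin-B2 known from the boundary between arteries and veins. Its H3K4me3 peaks in DMSO had fold enrichments of 5.14, 4.54 and 4.08 and −log10 q-values of 14.5, 12.3 and 9.26, and no peak was called within 1 kb of a start site in the 3 doxycycline libraries. The merged region, chr7:100827199-100827801 (603 bp), holds the start site and UTR sequence of the gene, and the peaks covered 187, 300 and 300 of the 300 promoter bases printed above. H3K27me3 was called at this promoter in 3 of 3 libraries of each treatment, H3K27ac in none, and H3K4me2 in 2 of 3 DMSO and 1 of 3 doxycycline libraries. EPHB4 stood just above the lowest H3K4me3 enrichment among guidance genes called in all DMSO libraries. The promoter calls were also 3 of 3 and 0 of 3 with lists of equal length, the 2.5 kb window and the canonical start. In the gene body, beyond 1 kb of the start sites, H3K4me3 lay the other way, over 0, 2.37 and 0% in DMSO and 2.04, 1.82 and 2.03% in doxycycline. That body difference was not called by limma in the lists as deposited. With lists of equal length it was called higher in doxycycline (log2 difference 1.57, adjusted p = 0.00338). Genes were tested where at least 3 of 6 libraries had cover, and at most 1 DMSO library had any here. EPHB4 was thus tested through its doxycycline libraries, at about 2% cover, so that call is no support for a difference.

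The H3K27ac gene was EPHA4, an Eph receptor that binds ephrins of both classes. Its DMSO peaks had fold enrichments of 2.55, 2.16 and 1.92 and −log10 q-values of 4.76, 1.73 and 1.52. They lay between chr2:221571742 and chr2:221573560 and covered 55, 300 and 0 of the bases printed above, so the third lay upstream of that window. H3K4me3 and H3K27me3 were called at EPHA4 in all 6 libraries each. With a q of 0.001 or less, the H3K27ac call was left in 1 DMSO library, and with lists of equal length in 2.

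The H3K27me3 gene was SEMA6C, a transmembrane semaphorin. Doxycycline peaks had fold enrichments of 2.02, 1.97 and 2.39 and −log10 q-values of 2.49, 1.61 and 1.46. Together they spanned chr1:151145220-151146326, downstream of the start, with 0 bases of the printed window under a peak, while H3K27ac peaks covered all 300 bases in 2 of 3 libraries of each treatment. With a q of 0.001 or less no library of either treatment had the H3K27me3 call. With a 2.5 kb window 1 DMSO library had it too.

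Short of full separation, H3K27ac was called in fewer doxycycline than DMSO libraries at 9 of 69 guidance promoters (13.0%), against 3.74% of all protein-coding genes. It was called in more doxycycline libraries at 2 (2.90%), against 2.3%. The 9 were the Eph receptors EPHA4, EPHA5, EPHA8 and EPHB1, the semaphorins SEMA3C, SEMA5A and SEMA6C, the repellent SLIT2 and the netrin NTN5, and the 2 were SEMA3B and SEMA4F. By family, H3K27ac in 3 of 3 libraries went from 9 to 5 of 14 Eph receptors, from 17 to 15 of 20 semaphorins and from 3 to 2 of 3 Slit genes, DMSO to doxycycline. It was at the same number in both treatments in plexins (9 of 9), neuropilins (2 of 2), ephrins (7 of 8), Robo receptors (3 of 4), netrins (1 of 4) and netrin receptors (3 of 5). This way of counting was adopted after the calls had been seen, and no test was made of it. The count was 7 to 9 over the alternatives run.

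**Figure D3:**
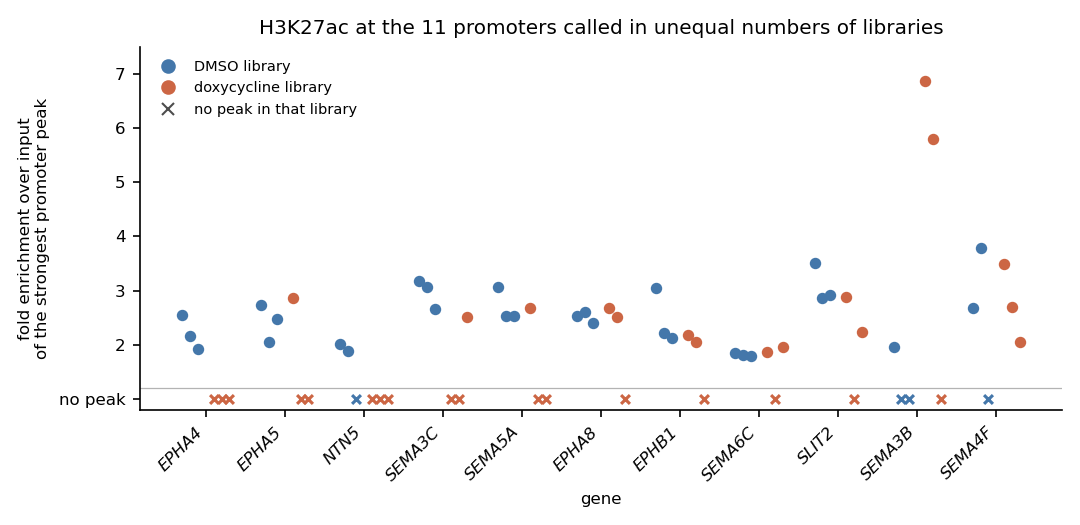
H3K27ac fold enrichment over input (vertical axis) of the strongest peak within 1 kb of a start site, in each DMSO and doxycycline library, at the 11 guidance promoters called in unequal numbers of libraries (horizontal axis). Each point is a library with a peak, and crosses at the level labelled no peak are libraries without one. In the 9 genes called in fewer doxycycline libraries, the DMSO peaks lie between 1.79 and 3.52.

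The peaks in question were weak. At EPHA5, H3K27ac fold enrichment was 2.73, 2.06 and 2.47 in DMSO and 2.86 in the 1 doxycycline library with a peak. At SEMA5A, a transmembrane semaphorin, it was 3.06, 2.52 and 2.52 in DMSO and 2.68 in the 1 doxycycline library. At SLIT2 it was 3.52, 2.86 and 2.92 in DMSO and 2.88 and 2.23 in the 2 doxycycline libraries. Libraries without a call give no value, so these numbers describe the called peaks only.

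For EPHA8 the values were 2.53, 2.60 and 2.41 in DMSO and 2.69 and 2.52 in doxycycline, and for EPHB1 3.04, 2.22 and 2.13 and then 2.18 and 2.05. The EPHB1 peaks lay at internal start sites, and its canonical start had no H3K27ac call in any library. SEMA6C had 1.85, 1.81 and 1.79 and then 1.86 and 1.95, and NTN5 2.00 and 1.89 in DMSO and no doxycycline peak. The median H3K27ac enrichment at guidance promoters was 3.85 to 5.39 in the DMSO libraries and 4.35 to 6.88 in the doxycycline libraries, so all 9 genes lay below the medians of the libraries.

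At SEMA3C, a secreted semaphorin, H3K27ac was called in 3 of 3 DMSO libraries and 1 of 3 doxycycline libraries. The strongest DMSO peaks had fold enrichments of 3.18, 3.07 and 2.65. That of DMSO library 3 (2.65) lay at an internal start site, centred 101732 bp into the gene, and its peak at the canonical start was 2.36. The doxycycline peak (2.51) lay at the same internal site, centred 101880 bp into the gene. At the canonical start the calls were 3 of 3 and 0 of 3, so that SEMA3C separates the treatments when that start alone is used.

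The opposite direction rested on few libraries. SEMA4F had H3K27ac in DMSO libraries 1 and 2 (2.67 and 3.78) and in all doxycycline libraries (3.49, 2.69 and 2.05). SEMA3B had it in DMSO library 1 (1.95) and in doxycycline libraries 1 and 2 (6.88 and 5.79). The SEMA3B peaks in doxycycline were 9880 and 10195 bp long and centred at −6320 and −6556 bp from the canonical start (negative, upstream), so that a long upstream domain reached the window of another start site.

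Calls in fewer doxycycline libraries were set beside the promoter class in DMSO, among genes with H3K27ac in all DMSO libraries. By that choice calls could only stay or fall in doxycycline, so these shares show no direction. The reverse count, among genes with H3K27ac in all doxycycline libraries, was not made. Of those with H3K4me3 and H3K27me3 together, 4 of 7 guidance genes (EPHA4, EPHA5, EPHB1 and SLIT2) had fewer doxycycline calls, and 6.80% of 823 genes overall. Of those with H3K4me3 alone, 4 of 46 had fewer (EPHA8, SEMA3C, SEMA5A and SEMA6C), and 1.14% of 11864 overall. For H3K27me3 itself, 4 guidance genes were called in fewer doxycycline libraries (NRP1, ROBO1, SEMA3E and EPHA5), against 4.37% of all genes, and 5 in more (EPHA3, EPHA8, EPHA10, SEMA6C and ROBO2), against 8.19%. In 69 genes these are 5.80% and 7.25%.

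Beyond promoters, the extent of each mark was measured as the percent of the gene body under peaks, leaving out 1 kb around start sites. Guidance genes were broadly covered by enhancer marks. H3K27ac covered a mean of 18.1% of their bodies in DMSO and 19.1% in doxycycline, against 7.86% and 8.34% over 18892 genes, and H3K4me1 26.4% and 26.7%, against 12.0% and 11.6%. H3K4me2 covered 10.04% and 12.1% (4.89% and 5.74% over all genes), H3K4me3 4.59% and 4.93% (3.07% and 3.04%), and H3K27me3 8.63% and 10.1% (10.001% and 12.6%). Per library, the means over guidance genes were 14.6 to 20.7% in DMSO and 15.9 to 21.5% in doxycycline for H3K27ac. Within genes longer than 48.1 kb, H3K27ac covered 13.99% in DMSO and 14.3% in doxycycline for 35 guidance genes, and 5.03% and 4.93% for all genes of that length. The medians of the same genes were 5.35% and 1.98% for guidance genes and 1.35% and 0.875% for all, so that a few genes carried the means.

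Families differed in this extent. Netrin receptors (mean 37.0% in DMSO), plexins (35.3%), Slit genes (29.9%) and netrins (29.1%) had the highest H3K27ac cover, neuropilins (16.2%), Eph receptors (13.5%), ephrins (13.5%) and semaphorins (10.04%) less, and Robo receptors the least (2.86%). Single genes carried some of these means: among netrins NTN3 was at 100%, NTN5 at 10.3%, NTN1 at 6.26% and NTN4 at 0%, and among Slit genes SLIT3 at 71.8%, SLIT1 at 15.5% and SLIT2 at 2.55%. The most covered genes were the short netrin NTN3 (100% in every library), EPHB3 (96.5% in DMSO and 100% in doxycycline) and UNC5B (84.0% and 96.8%). H3K27me3 covered EFNA2 (95.1% and 98.8%), SEMA3B (77.4% in every library) and SEMA6B (74.7% and 91.3%) most.

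limma was fitted to log2(percent covered + 1) for all genes with coverage in at least 3 of the 6 libraries of a mark, with Benjamini-Hochberg adjustment over all genes tested. For H3K4me1, 0 of 64 guidance genes tested passed an adjusted p of 0.05 (0.238% of all genes did), for H3K4me2 0 of 60 (0.0333%), for H3K4me3 0 of 53 (0.436%), for H3K27ac 0 of 54 (0.865%) and for H3K27me3 0 of 25 (0%). At an unadjusted p under 0.05 there were 4, 0, 2, 8 and 0 guidance genes, and 1029, 198, 648, 1316 and 44 genes in all. Deviations of same-numbered libraries correlated above 0.1 in each of 3 pairs for H3K4me1 and H3K4me3, but other-numbered H3K4me3 pairs reached 0.215. With the replicate block the calls over all genes for these marks went from 34 to 0 and from 43 to 0, while guidance genes remained at 0. In simulated data, log2 changes of size 2 were recovered in 51% of H3K27ac, 47% of H3K4me1, 81% of H3K4me3, 16% of H3K4me2 and 11% of H3K27me3 cases. For changes of size 1 the shares were 17%, 7%, 66%, 1% and 8% in the same order. Changes of either size could thus be missed. The median cover of the 69 guidance genes in DMSO was 0.51% for H3K4me3 and 0% for H3K27me3. With a pseudocount of 1 percent, a log2 fall of 2 cannot be reached from such values. Recovery at genes with so little cover was not tested.

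**Figure D4:**
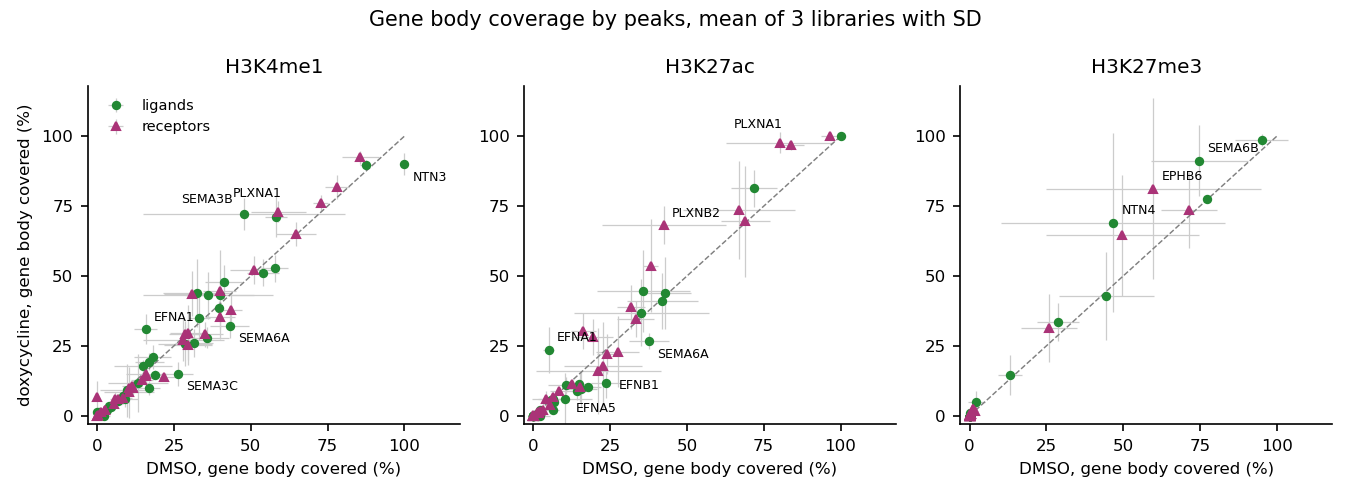
Percent of the gene body under peaks in DMSO (horizontal axis) and doxycycline (vertical axis) for each guidance gene, for H3K4me1, H3K27ac and H3K27me3. Points are means and bars SD over 3 libraries (circles, ligands; triangles, receptors), the dashed line marks equal values, and the labelled genes are among those farthest from it, such as EFNA1 (4.94% and 23.6% for H3K27ac).

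The widest H3K27ac difference on the log2 scale was at EFNA1, an ephrin of the A class with a gene body of 2.695 kb. H3K27ac covered 5.53, 6.38 and 2.89% of it in DMSO and 15.4, 31.9 and 23.6% in doxycycline, so the groups did not overlap. The log2 difference was 2.05 (SE 0.39, adjusted p = 0.116). H3K4me1 at EFNA1 covered 17.7, 18.3 and 11.5% and then 27.2, 28.8 and 37.2% (log2 difference 0.95, SE 0.24, adjusted p = 0.411), again without overlap. Over the whole gene span, start sites included, the H3K27ac log2 difference was 0.21.

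PLXNA4, a receptor for class 3 semaphorins, had H3K27ac over 19.6, 17.3 and 12.0% of its body in DMSO and 36.5, 30.6 and 23.7% in doxycycline, without overlap (log2 difference 0.86, SE 0.28, adjusted p = 0.293). Over a body of 519.515 kb, no other guidance gene differed by as many bases of H3K27ac cover. PLXNB2 had 55.3, 52.9 and 19.1% and then 75.3, 61.7 and 67.8%, and PLXNA1 93.2, 87.2 and 60.3% and then 100, 100 and 93.3%. DMSO library 3 was the lowest library in all 3 plexins. Of the 9 plexins, 7 had higher mean H3K27ac cover in doxycycline and 2 lower (22.2% of those that differed, against 55.7% of all genes), with no test of the family, and the family mean was 35.3% in DMSO and 43.6% in doxycycline.

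Of the 20 semaphorins, 13 had lower mean H3K27ac cover in doxycycline, 3 higher and 4 equal, with family means of 10.04% and 8.70%. Lower values were thus 81.3% of those that differed, against 55.7% over all genes, but no test was made of the family and no semaphorin passed limma's test. SEMA3C had H3K27ac over 4.70, 5.99 and 8.61% in DMSO and 1.38, 2.72 and 1.84% in doxycycline, without overlap (log2 difference −1.31, SE 0.31, adjusted p = 0.169). Its H3K4me1 cover was 29.8, 20.7 and 28.5% and then 19.4, 10.8 and 15.0% (log2 difference −0.79, SE 0.27, adjusted p = 0.601). SEMA6A, a transmembrane semaphorin, had H3K27ac over 44.7, 32.1 and 36.0% and then 27.3, 23.8 and 29.3%, and H3K4me1 over 46.4, 35.8 and 47.1% and then 35.6, 27.2 and 34.0%. In SEMA6A the groups did not overlap in either mark, and neither difference passed the test. The share of all protein-coding genes whose groups do not overlap is not given here. Lack of overlap therefore cannot be called particular to the genes named in this account.

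Among ephrins, EFNB1 had H3K27ac over 27.2, 25.8 and 18.2% in DMSO and 17.9, 9.21 and 8.05% in doxycycline (log2 difference −1.02, SE 0.36, adjusted p = 0.333). EFNA5 had 22.5, 15.0 and 15.8% and then 9.64, 10.7 and 9.96% (log2 difference −0.74, SE 0.23, adjusted p = 0.283). The doxycycline libraries were lower than the DMSO libraries in both genes, opposite to EFNA1. The other guidance genes with an unadjusted p under 0.05 for H3K27ac were SEMA3E, SEMA5A and SLIT2, all lower in doxycycline.

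Over all 69 genes, H3K27ac cover was lower in doxycycline in 34, higher in 22 and equal in 13, so that 60.7% of those that differed were lower, against 55.7% of all genes. The corresponding shares were 61.8% against 63.3% for H3K4me1, 38.5% against 43.8% for H3K4me2, 45.6% against 62.2% for H3K4me3 and 34.2% against 36.8% for H3K27me3. The widest gap between guidance genes and all genes was in H3K4me3, and no test was made of it.

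The widest differences in percent for H3K4me1 were, besides those above, at SEMA3B (66.5, 67.2 and 9.72% in DMSO, then 78.5, 67.3 and 71.1% in doxycycline), at PLXNA1 (67.0, 60.9 and 49.2%, then 76.4, 73.4 and 69.1%) and at NTN3 (100% in each DMSO library, then 93.0, 91.6 and 85.8%). DMSO library 3 decided the SEMA3B difference. For H3K4me2 they were at PLXNA1 (33.9, 27.4 and 18.1%, then 65.9, 34.9 and 26.6%), EFNA2 (20.4, 13.7 and 4.58%, then 50.1, 17.8 and 13.2%) and UNC5B (57.0, 44.9 and 29.4%, then 66.6, 52.9 and 51.5%). The groups overlapped in all 3.

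Lower H3K4me2 cover in doxycycline was seen at SEMA6A (15.9, 5.61 and 3.85%, then 4.35, 4.19 and 6.09%), EPHA10 (11.4, 8.19 and 2.62%, then 9.19, 2.08 and 2.85%) and EFNA5 (11.7, 5.17 and 2.38%, then 3.999, 3.81 and 4.77%). DMSO library 1 was the highest in each, and without it SEMA6A and EFNA5 turned direction, to log2 differences of 0.038 and 0.18. The H3K4me2 differences passed no test.

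For H3K4me3 the widest differences upward in doxycycline were at NTN3 (67.5, 92.4 and 51.9%, then 100, 100 and 54.7%), SEMA3B (0% in each DMSO library, then 11.9, 0 and 0%) and EFNA2 (3.998, 5.08 and 3.28%, then 9.06, 9.99 and 3.02%). Those downward were at EPHB3 (43.6, 45.1 and 41.0%, then 44.6, 43.1 and 30.5%), EFNA3 (56.5, 56.9 and 54.8%, then 55.7, 56.3 and 52.1%) and ROBO4 (5.53, 0 and 2.89%, then 6.01, 0 and 0%). The groups overlapped in all 6, and in SEMA3B 1 library decided the value.

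H3K27me3 cover varied widely between replicates in the genes with the widest differences. NTN4 had 88.7, 27.5 and 23.9% in DMSO and 91.2, 83.8 and 32.2% in doxycycline, EPHB6 100, 43.8 and 35.6% and then 100, 100 and 43.8%, and SEMA6B 91.6, 72.2 and 60.3% and then 100, 97.1 and 76.8%. The fragment length estimates of these lists were 256, 112 and 105 bp in DMSO and 265, 280 and 108 bp in doxycycline, so the lists with short estimates were those with low cover. With the estimate (over 150 bp or not) as a covariate, limma called 0 guidance genes for H3K27me3, with 0 at an unadjusted p under 0.05, as without it. The lowest differences, at EFNA3 (58.6, 46.8 and 28.2%, then 53.0, 50.8 and 24.5%), SEMA4B (0, 0 and 0.54%, then 0%) and SEMA3E (0, 0.15 and 0.20%, then 0%), were small against that spread.

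Of the prototypes not yet given, SEMA3F had H3K27ac over 42.0 ± 11.5% of its body in DMSO and 41.1 ± 10.1% in doxycycline (SD, n = 3), EPHB2 over 19.4 ± 6.73% and 28.1 ± 6.38%, EPHA2 over 22.7 ± 12.7% and 17.9 ± 15.6%, and NRP1 over 8.30 ± 2.91% and 8.81 ± 0.93%. ROBO1 (1.86 ± 0.33% and 1.11 ± 0.13%), SLIT2 (2.55 ± 0.28% and 1.37 ± 0.14%), SEMA3A (1.15 ± 0.44% and 0.78 ± 0.54%) and UNC5D (0.28 ± 0.31% and 0.05 ± 0.01%) had little, and DCC none. NTN1 had H3K27ac over 6.26 ± 2.84% and 6.12 ± 2.29% and H3K27me3 over 28.7 ± 6.83% and 33.6 ± 6.85%. The long genes ROBO1, SLIT2, UNC5D and DCC thus held few or no bases under H3K27ac in relation to their length. This does not hold for all long genes of their families, such as SLIT3.

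Single regions within the genes were compared by the same rule as promoters. Of H3K27ac regions in guidance genes, 9 were called in all doxycycline and no DMSO libraries and 15 in all DMSO and no doxycycline libraries. Per Mb of gene this was 0.623 and 1.04, against 0.309 and 0.943 over all protein-coding genes. For H3K4me1 there were 7 and 9 regions (0.484 and 0.623 per Mb, against 0.252 and 1.01), for H3K4me2 1 and 3 (0.0692 and 0.208 per Mb, against 0.0676 and 0.122), for H3K4me3 0 and 2 (0 and 0.138, against 0.0453 and 0.0937), and for H3K27me3 1 and 0 (0.0692 and 0, against 0.134 and 0.00615). Introns held 20 of the 24 H3K27ac regions. The weakest of the 3 peaks behind a region had a −log10 q-value of 1.02 to 2.25 where the region was in doxycycline and of 1.22 to 3.98 where it was in DMSO, so these were weak peaks.

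**Figure D5:**
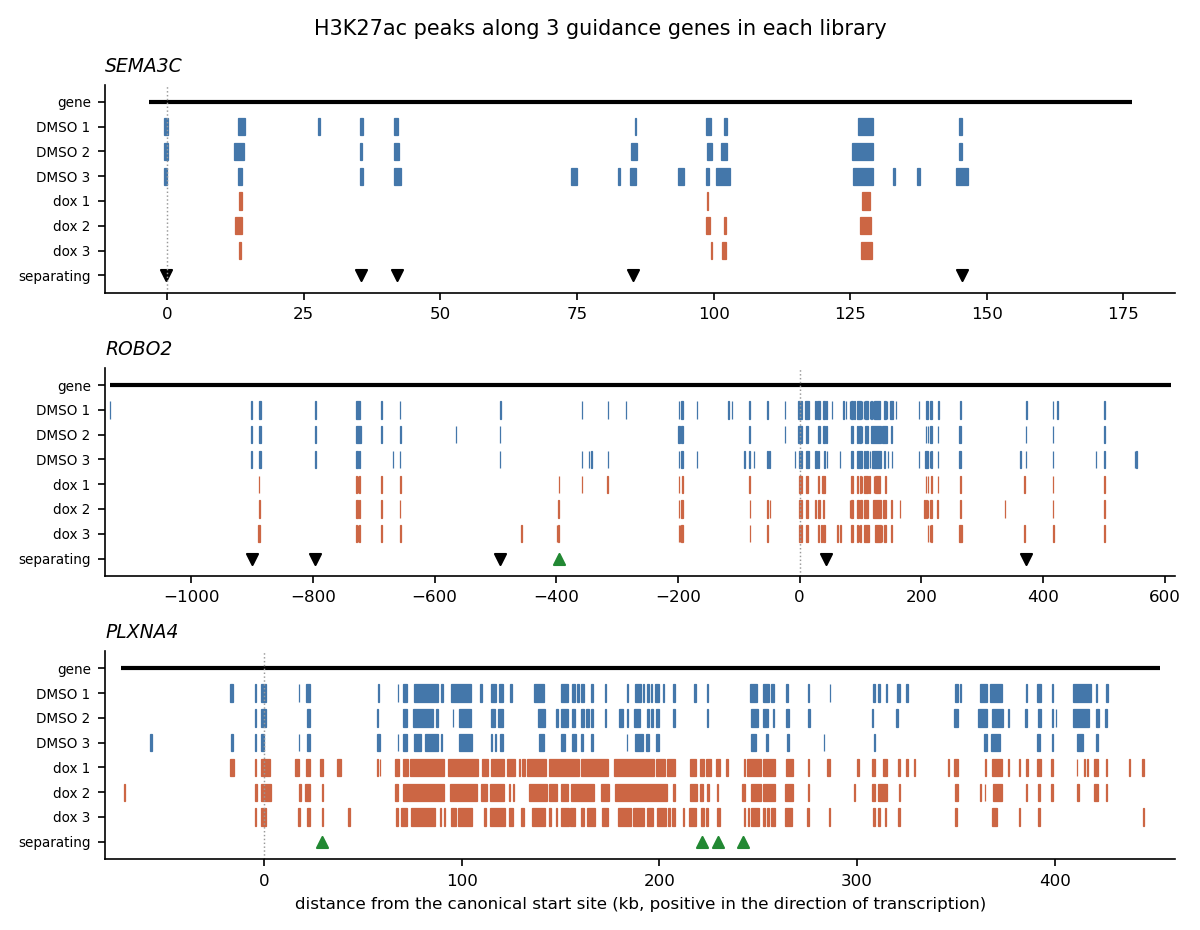
H3K27ac peaks (bars) along SEMA3C, ROBO2 and PLXNA4 in each DMSO and doxycycline (dox) library; the horizontal axis is the distance from the canonical start site in kb, positive in the direction of transcription. Triangles mark regions called in 3 of 3 libraries in DMSO and 0 of 3 in doxycycline (pointing down) or the reverse (pointing up): 5 down in SEMA3C, 5 down and 1 up in ROBO2, and 4 up in PLXNA4.

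These regions gathered in a few genes. SEMA3C held 5 regions called in DMSO only, among them its canonical promoter at chr7:80918822-80919669, with fold enrichments there of 3.18, 3.07 and 2.36. Its H3K27ac peaks numbered 10, 9 and 14 in DMSO and 3, 4 and 4 in doxycycline, and covered 8.92, 11.4 and 16.6 kb and then 2.38, 4.68 and 3.38 kb. Every doxycycline library thus had fewer peaks and less cover than every DMSO library.

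ROBO2, a Slit receptor whose gene spans 1743 kb, held 5 regions in DMSO only and 1 in doxycycline only. Its peaks numbered 53, 33 and 51 in DMSO and 34, 34 and 37 in doxycycline, with overlap, but the cover of 104, 92.5 and 95.7 kb against 57.9, 82.1 and 73.1 kb did not overlap. The strongest region, chr3:76138411-76139924, lies in an intron, with fold enrichments of 3.95, 2.68 and 2.44.

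PLXNA4 held 4 H3K27ac regions in doxycycline only, 28.3 to 208.4 kb from the nearest start site, and 2 H3K4me1 regions in doxycycline only. Its peak numbers overlapped (53, 45 and 36 in DMSO, then 57, 43 and 54 in doxycycline), while the cover was 104, 92.0 and 63.3 kb and then 192, 162 and 125 kb. The doxycycline libraries thus had more cover at overlapping numbers of peaks. In NRP1, H3K27ac (chr10:33217745-33218666, fold enrichments of 3.03, 2.17 and 2.61) and H3K4me1 (2.87, 2.20 and 2.59) were both called in doxycycline only at 1 intronic place. UNC5C held 2 H3K27ac regions in doxycycline only and SEMA5B 1, and EPHA4, EPHB2, EFNA5, ROBO1 and SEMA6A held 1 each in DMSO only.

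Enhancer classes were adapted from the methods of the study, from H3K4me1 regions without H3K4me3, with each mark called in 3 of 3 libraries of a treatment. Unlike in those methods, active regions also had to lack H3K27me3 and poised regions H3K27ac, so regions with both marks fell in no class. Active regions (with H3K27ac) in guidance genes numbered 213 in DMSO and 200 in doxycycline, or 14.7 and 13.8 per Mb, against 9.28 and 7.90 over all genes. Primed regions (H3K4me1 alone) numbered 234 and 206 (16.2 and 14.3 per Mb, against 13.1 and 11.7), and poised regions (with H3K27me3) 10 and 12 (0.692 and 0.830 per Mb, against 0.822 and 1.14). With peaks of q 0.001 or less, primed regions numbered 83 and 105, and with lists of equal length 170 and 172, so their direction turned. Active regions were denser in guidance genes in both treatments. SLIT3 alone held 37 and 36 of them, followed by ROBO2 (21 and 17), PLXNA4 (17 and 23), PLXNA2 (15 and 15), UNC5C (12 and 12) and EFNA5 (12 and 10). SEMA3C went from 7 to 2 and SEMA6A from 9 to 6, and EPHB2 from 10 to 12. With 3 consensus libraries per count there is no replicate error on these numbers.

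The other genes of the pathway were taken from a list of 74, with 23 further cues and receptors and 51 intracellular effectors such as the collapsin response mediators. H3K27ac was called in 3 of 3 libraries at 65 of them in both treatments, H3K4me3 at 70 and 70, and H3K27me3 at 13 in DMSO and 16 in doxycycline. At promoters, CXCL12, a chemokine, had H3K27ac in doxycycline only, and NTNG1, which encodes netrin-G1, had H3K27me3 in doxycycline only. H3K27ac was called in fewer doxycycline libraries at 4 (5.41%) and in more at 2. Both H3K4me3 and H3K27me3 marked 11 in DMSO and 14 in doxycycline (14.9% and 18.9%). In gene bodies, 1 of 64 tested passed the limma test for H3K27ac, the Wnt receptor RYK, which was lower in doxycycline (mean cover of 1.74% and 0.12%, log2 difference −1.29, SE 0.17, adjusted p = 0.0454), against 0.865% of all genes called. RYK lost this call without DMSO library 1, without DMSO library 2 and without doxycycline library 2, where limma called 0 genes for H3K27ac in all. The call was also lost with the replicate block, where limma again called 0 genes for H3K27ac. Of the list, 0 genes passed for the other 4 marks, where 5, 0, 4 and 1 had an unadjusted p under 0.05 for H3K4me1, H3K4me2, H3K4me3 and H3K27me3.

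Finally, the 59 promoter windows were searched on both strands for 4 short motifs. CATCTG, an E-box of the HAND2 type, was found in 2 (3.39%, EPHB4 and PLXNA4), against 10.7% of 15315 windows. CAGGTG, an E-box of the TCF4 type, was found in 10 (16.9% against 19.6%), CACGTG, of the MYC type, in 3 (5.08% against 8.86%) and TGTGGT, the RUNX core, in 8 (13.6% against 10.6%). In the sequences printed above there was 1 match, the CATCTG of EPHB4, 231 bases before the start. CpG medians by class in DMSO were 28 for 41 promoters with H3K4me3 alone, 30 for 13 with both marks, 18 for the 2 with H3K27me3 alone (DCC and EPHA1) and 15 for the 3 with neither mark.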

How the data were processed

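ChIP-seq peak lists of 5 histone marks, 3 libraries per mark and treatment, were analysed, with groups and replicate numbers from the labels. The authors aligned reads to hg38 with Bowtie2, kept mapping quality 30 or more and called peaks per library with MACS2 against input. The file headers give broad calling at q 0.05 with linking at q 0.1 for 18 lists (H3K4me1, H3K27ac, H3K27me3) and narrow calling at p 1e-05 for 12 (H3K4me2, H3K4me3), although the methods give a q for all. Input totals for replicates 3 and 1 were the same. For each peak the authors deposited a pileup (a coverage signal), a fold enrichment (the ratio of ChIP to local background) and, from the caller, a −log10 p-value. The −log10 q-value was deposited alongside. All depend on depth, as does whether a peak is called. Libraries were compared by presence of a peak and by the percent of the gene body under peaks. No counts per region were used.

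Python 3.11.15, pandas 2.3.3, numpy 2.4.6, R 4.3.3 and limma 3.58.1 (trend and robust options, pseudocount of 1 percent) were used with GENCODE release 44 and RefSeq promoters. Promoters were 1 kb either side of every start site, and gene bodies of at least 500 bp excluded these. Scripts were tested on simulated data. The members, lists and tests were chosen with earlier results of these data known. Genes named were those separating the treatments, the 3 highest and 3 lowest differences in cover per mark, the most covered, those with H3K27me3 and no H3K4me3 and 12 prototypes of the families. Other genes named were chosen after their values were seen. Deviations of same-numbered libraries correlated at 0.131 to 0.239 (H3K4me1) and 0.190 to 0.422 (H3K4me3), above 0.1 in each of 3 pairs. Those of other-numbered libraries correlated at −0.141 to −0.0472 (H3K4me1) and −0.320 to 0.215 (H3K4me3). The ranges overlap for H3K4me3, so the correlation leaves its pairing by number uncertain. Redundant reads did follow the numbers, and were highest in replicate 3 of every mark in both treatments. For H3K4me3 they were 22% in DMSO and 25% in doxycycline, against 13% and 16% in replicate 1. The main fit had no replicate block. Alternatives were a q of 0.001 or less, lists of equal length, a 2.5 kb window, the canonical start, leaving out each library, a replicate block, pseudocounts of 0.1 and 5, no coverage filter, the whole gene span and, for H3K27me3, the fragment length estimate. H3K27ac called in fewer or more libraries was added after seeing the data.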

Additional observations from a re-analysis of the deposited data

How the results depend on the processing

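H3K27ac was called in fewer doxycycline libraries at 7 to 9 guidance genes under every promoter alternative, and in more at 2, except 1 with the canonical start and 1 without DMSO replicate 3. Of the counts recomputed, 316 stayed within 1.5 times the reported count and 94 did not. Guidance genes separating the treatments at promoters numbered 1 for H3K4me1 with the canonical start (SEMA6A), 1 for H3K4me2 with a 2.5 kb window (NTN5), 2 for H3K27ac with the canonical start (EPHA4 and SEMA3C) and 0 with equal lists, and 0 for H3K27me3 with q 0.001, equal lists or the 2.5 kb window. Over all protein-coding genes, 60 had H3K4me1 and 39 had H3K27ac in DMSO only with the canonical start. With the 2.5 kb window, 4 had H3K4me2 in doxycycline only. With q 0.001 the H3K27ac gene was SEMA3C. With q 0.001, H3K27me3 marked 9 genes in DMSO and 10 in doxycycline, both marks 9 and 9, separating regions were 2 (H3K4me1), 12 (H3K27ac) and 0 (H3K27me3), and active, primed and poised regions were 79, 83 and 3 in DMSO and 73, 105 and 5 in doxycycline, so that primed regions turned direction. With the canonical start, both marks were at 10 genes in DMSO. The share of all protein-coding genes with both marks is not given here for the q limit or the canonical start. Equal lists gave 12 H3K4me2 and 0 H3K27me3 regions and 6 poised regions in DMSO.

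With the replicate block, limma called 0 genes for H3K4me1, H3K4me2, H3K4me3 and H3K27ac (34, 4, 43 and 89 without, RYK among the 89) and 0 for H3K27me3 in both. Guidance genes were at 0 with and without it. The numbers did not pair H3K4me2, H3K27ac or H3K27me3 libraries by the correlation (lowest pairs 0.0824, 0.0754 and −0.190). Genes called for H3K4me1 were 21 with a pseudocount of 5, 7 over the whole span, 3 with q 0.001 and 61 with equal lists. For H3K4me2 they were 1 with a pseudocount of 5, 2 without the filter, 0 over the whole span and 10 with equal lists, and for H3K27ac 162 and 15 with pseudocounts of 0.1 and 5 and 46 without the filter. Guidance genes called were EPHB4 for H3K4me3 with equal lists (1 gene, higher in doxycycline, log2 difference 1.57) and SEMA5A for H3K27ac over the whole span (1 gene, −0.64). EPHB4 had body cover in at most 1 DMSO library, so it was tested through its doxycycline libraries and the call is no support for a difference. Over 14 settings the H3K27ac difference was −1.66 to −0.70 in SEMA3C, 0.21 to 2.31 in EFNA1 and 0.67 to 1.02 in PLXNA4, with adjusted p of 0.0564 to 0.394, 0.0945 to 0.710 and 0.179 to 0.603. 

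Leaving out 1 library, which loosens the rule to 2 libraries, separating promoters were 1 to 3 for H3K27ac (3 without Doxycycline replicate 1), 1 to 3 for H3K27me3 (3 without DMSO replicate 1) and 0 to 2 for H3K4me1 (2 without Doxycycline replicate 1). Over all protein-coding genes, the same omissions took H3K27ac in DMSO only from 44 to 106 genes and H3K27me3 in doxycycline only from 38 to 215. H3K4me1 in DMSO only went from 38 to 198 genes. Separating regions were 25 to 56 (H3K4me1), 11 to 19 (H3K4me2), 2 to 7 (H3K4me3), 32 to 42 (H3K27ac) and 1 to 5 (H3K27me3), and poised regions in doxycycline 8 to 19 (19 without Doxycycline replicate 2). Genes called by limma were 1 to 35 (H3K4me1, 1 without DMSO replicate 3), 0 to 2 (H3K4me2), 0 to 5 (H3K4me3) and 0 to 4 (H3K27ac), each with fewer samples in the fit. The log2 difference turned direction for H3K4me2 in SEMA6A (−0.86 to 0.038) and EFNA5 (−0.77 to 0.18), both without DMSO replicate 1, for H3K4me3 in EPHB3 (−0.25 to 0.020, without Doxycycline replicate 3) and for H3K27me3 in EFNA3 (−0.36 to 0.28, without DMSO replicate 1 and without Doxycycline replicate 3, and 0.23 with q 0.001). The cause was not tested. The narrow lists held no peak above q 0.001, so that limit left them as they were.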
